A study of Mus musculus with 23 samples.

Results

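The 3 arrays described here set RNA of the prefrontal cortex of mice killed 72 h after subcutaneous CT-26.WT cells against cortex RNA of mice killed 72 h after PBS. CT-26.WT is a colon carcinoma line of Balb/c origin. The animals were male Balb/c mice, 8 weeks old, with no other treatment in the labels. The tumour group received 1000000 cells in 300 ul PBS and the control group received 300 ul PBS, so the vehicle and the injection are shared by both groups. The series holds 23 arrays of 11 biological replicates at 18, 72 and 192 h. At 72 h, 4 arrays are labelled as total RNA, 2 of replicate 3 and 2 of replicate 4, and 3 of these 4 were used. They are the array of replicate 3 with tumour RNA in Cy5 and both arrays of replicate 4, with tumour RNA in Cy5 on the first and in Cy3 on the second. The labels call the replicates biological and do not say whether an extract came from 1 animal or from several, so the p-values measure the spread between these extracts.

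A tumour under the skin lies outside the brain, and it is known that cytokines, glucocorticoids and sensory nerves can carry its effects to the cortex. The prefrontal cortex holds excitatory and inhibitory neurons, astrocytes, oligodendrocytes, microglia and blood vessels, and its RNA is the sum over all of them. In such bulk tissue, fewer cells of a type and less RNA per cell cannot be told apart. On a 2-colour array both RNAs lie on the same spot, and a probe is given here by its log2 ratio (tumour over PBS), where 0 means equal signal. In a dye swap the labels trade places, so a ratio that follows the tumour keeps its sign after it is turned by the label and a ratio that follows the dye changes it. Replicate 4 has this check and replicate 3 does not.

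Each array holds 10080 spots in 48 sub-grids of 210. Usable spots numbered 7559 to 7961 per scanner file on replicate 3 and on the array of replicate 4 with tumour in Cy5, apart from 1 file with 7368, and 5064 to 5319 on the array of replicate 4 with tumour in Cy3. Signal, already less the local background, was of a size near that background in the weaker channel. Its median over the 9 files was 0.817 to 2.09 times the local background in Cy3 and 1.56 to 8.01 times in Cy5. The brightness of the spots was set against that of other arrays by probe name, inside each sub-grid, to see whether the names hold. The correlation was 0.484 for the array of replicate 3, above 0 in 48 of 48 sub-grids, and 0.416 to 0.761 for the other 12 total RNA arrays in use. Over the whole slide the array of replicate 3 had a rank correlation of only 0.131, and 42.9% of the variance of its log brightness lay between sub-grids, against 4.88% and 14.8% on the arrays of replicate 4. The array of replicate 3 that was left out, with tumour in Cy3, had 0.079 inside the sub-grids, under the limit of 0.1, and 36.6% of its variance between them. The 5 poly(A) RNA arrays of 72 h had 0.031 to 0.045 and were not used either.

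**Figure D1:**
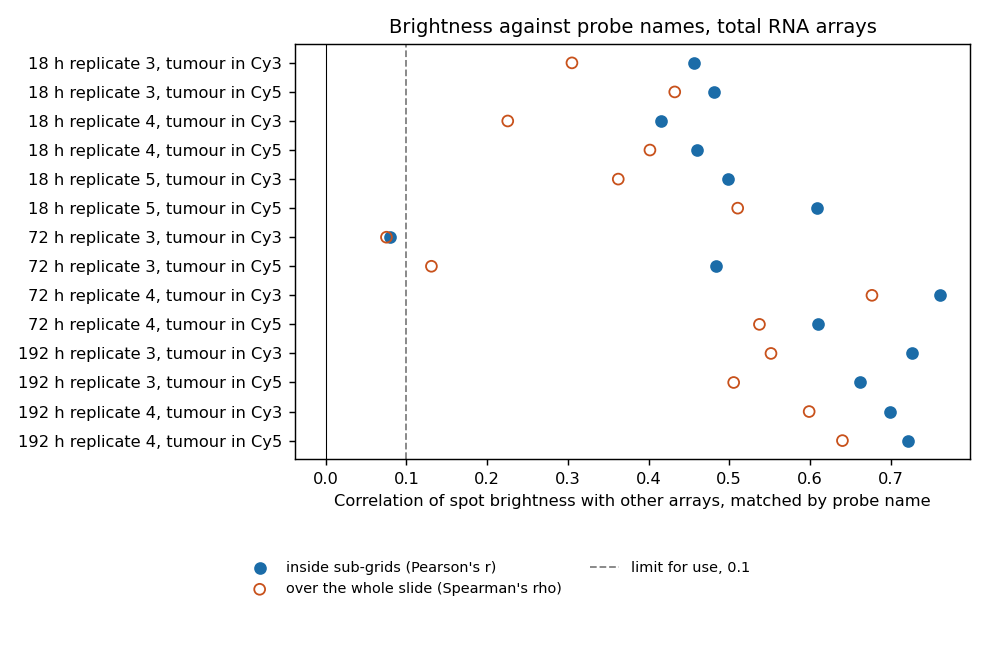
Correlation of spot brightness with that of other arrays after matching by probe name, for the 14 arrays labelled total RNA, with filled points for the value inside sub-grids and open points for the value over the whole slide. The dashed line is the limit of 0.1; the array of 72 h replicate 3 with tumour in Cy5 is at 0.484 inside sub-grids and 0.131 over the slide, and its partner with tumour in Cy3 is at 0.079 inside sub-grids.

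A total of 4617 probes had a ratio on all 3 arrays, and 4612 of them carried 1 gene symbol, for 4540 genes. Of these probes 946 (20.5%) had the same sign on the 3 arrays, 440 (9.53%) with tumour above PBS and 506 (11%) below. These signs are what chose the probes described here, and they are given as counts with no test. The most frequent of the 8 sign patterns was another, below 0 on replicate 3, above 0 on replicate 4 with tumour in Cy5 and below 0 with tumour in Cy3, with 834 probes (18.1%). The pattern above 0 on all 3 arrays was the least frequent of the 8, so the same sign was not favoured over mixed signs. Most of the 946 values were small. The weakest of the 3 ratios reached a size of 0.1 in 187 probes, 0.2 in 28, 0.3 in 4 and 0.5 in 2, Neurod4 and Efhc2. The median size of a ratio over all probes was 0.13, 0.15 and 0.15 on the 3 arrays.

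The orientations of replicate 4 did not rank the probes alike. Across the 4617 probes, which share the extracts, the turned ratios had a Pearson correlation of -0.193, and 44.7% of probes had the same sign in both. The standard deviation over probes was 0.222 for the mean of the orientations, which holds what follows the tumour label. For 0.5 times their difference, the dye part, which holds what follows the dye, it was 0.269. Both also hold the noise of the arrays, which was not separated. That dye part correlated at 0.268 with the mean dye part of the dye swaps at 18 and 192 h over 4396 probes. Replicate 3 correlated at -0.048 with the mean of replicate 4, and 47.1% of probes had the same sign. With the probes cut into 3 equal groups by brightness, the share of one sign was 23.3% in the brightest, 18.1% in the middle and 20% in the dimmest, with swap correlations of -0.116, -0.266 and -0.171. When loess was run within the sub-grids, the swap correlation was -0.123 and the share of one sign 23.2%. Between 14.2% and 26.2% of the variance of the log2 ratios lay between sub-grids on the 3 arrays.

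**Figure D2:**
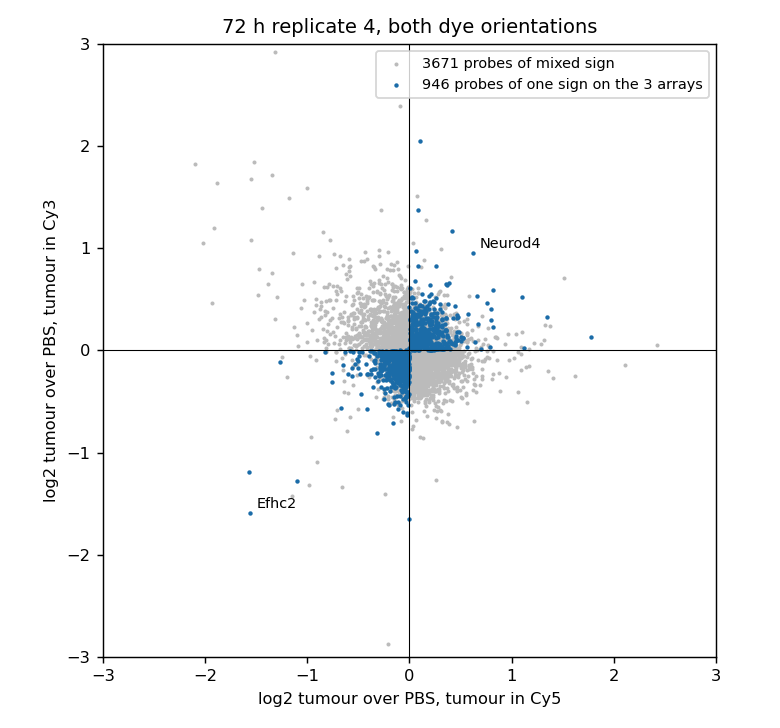
Log2 ratio of tumour over PBS of each of 4617 probes on the arrays of 72 h replicate 4, with tumour RNA in Cy5 on the horizontal axis and in Cy3 on the vertical axis, both turned by the dye label; 11 probes beyond 3 on an axis are not drawn. Blue points are the 946 probes of the same sign on the 3 arrays; Neurod4 stands apart at the upper right and Efhc2 at the lower left, while the cloud as a whole leans the other way (correlation -0.193).

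The comparison of tumour with PBS at 72 h was tested by limma over the 7 total RNA replicates of the series, 3 at 18 h, 2 at 72 h and 2 at 192 h. At a Benjamini-Hochberg adjusted p under 0.05, limma called 0 of 4617 probes (0%), with 93 (2.01%) at an unadjusted p under 0.05, of which 47 (1.02%) were higher and 46 (0.996%) lower. No adjusted p was under 0.9998. The median standard error was 0.14. No gene can therefore be said to have risen or fallen, and the values below describe these 2 replicates.

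Neurod4, a basic helix-loop-helix factor of neuronal differentiation, had the highest values that held on every array. Its log2 ratios were 0.61 in replicate 3, 0.62 in replicate 4 with tumour in Cy5 and 0.95 in replicate 4 with tumour in Cy3. High values on all 3 arrays are how this gene was chosen, so a gap to the other times is no support. The 2 replicates of 192 h were at -0.039 and -0.0028. The mean over the 72 h replicates was 0.70 ± 0.13 (SE of the limma fit, n = 2; limma unadjusted p = 0.000896). This p-value comes from the values that chose the gene, so it is no support either. The same holds for the p-values given below for Plod3, Efhc2 and Cldn4. At 18 h no replicate gave Neurod4 a value. The weaker channel of its spot, less background, was at 0.463 to 2.03 times the local background. On 2 of the 3 arrays this signal was thus smaller than the background taken off.

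The other 11 named genes above 0 follow. C1qtnf2, a secreted protein related to complement C1q and tumour necrosis factor, was at 0.46, 0.36 and 0.65 on the 3 arrays, in the order given for Neurod4. C4bp, which binds complement C4b and limits complement activation in plasma, was at 0.27, 0.80 and 0.40. The high array differed between these genes. Plod3, which hydroxylates lysines of collagen, had the closest values of the 24 named genes, at 0.27, 0.28 and 0.27. Its mean was 0.27 ± 0.12 (limma unadjusted p = 0.0604), and it was also well measured, with the weaker channel at 1.85 times background or more on each array.

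Hdac9, a histone deacetylase, was at 0.41 in replicate 3 and at 1.34 and 0.32 in replicate 4, so that 1 array held most of its mean of 0.62 ± 0.16. Zbtb33, a zinc finger repressor that binds methylated DNA and is also called Kaiso, was at 0.60, 0.27 and 0.32. It was among the dimmest of all probes, with 1 usable scanner file on 2 of its arrays. Tdrd1, a tudor domain protein of the germ cell piRNA pathway, was at 0.53, 0.26 and 0.83, which gave 0.53 in replicate 3 and 0.54 in replicate 4. Cep128, a centrosomal protein, was at 0.25, 1.10 and 0.52, and Padi2, which turns arginine into citrulline in proteins, at 0.24, 0.67 and 0.26. In both genes the array of replicate 4 with tumour in Cy5 was the high one. Cd79a, the signalling subunit of the B cell receptor, was at 0.26, 0.43 and 0.31, and 4930488L21Rik and 1700080O16Rik had weakest values of 0.26 and 0.23. The next probes in order, just outside the 12, were Ppfibp1 and Pld1.

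Efhc2, an EF-hand domain protein, was the lowest. Its log2 ratios were -0.53 in replicate 3, -1.56 in replicate 4 with tumour in Cy5 and -1.59 in replicate 4 with tumour in Cy3. The orientations of replicate 4 gave nearly the same value, and replicate 3 was nearer to 0 than either. The mean was -1.05 ± 0.25 (limma unadjusted p = 0.00602), while the 1 replicate with a value at 18 h stood at 0.01 and the 1 at 192 h at 0.23. Its spot was bright, with the weaker channel at 1.84 to 8.49 times background. Eloa, the elongin A subunit of a transcription elongation complex, was also bright and close between arrays, at -0.28, -0.25 and -0.29.

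Il2rb, the beta chain of the receptors for interleukins 2 and 15, was at -0.23, -0.67 and -0.57 on the 3 arrays. It was below 0 in the 4 replicates of the other times that measured it as well, at -0.16 and -0.14 at 18 h and -0.0049 and -0.32 at 192 h. Nrg3, a neuregulin that binds ErbB4, was at -0.21, -0.22 and -0.36, and Csmd3, a large membrane protein with CUB and sushi domains, at -0.22, -0.76 and -0.22. At 18 h both Nrg3 (0.04 and 0.42) and Csmd3 (0.39 and 0.31) were above 0 in the 2 replicates that measured them. Bag4, a co-chaperone that binds Hsp70 proteins, was at -0.36, -0.61 and -0.23, and Letm1, a protein of the inner mitochondrial membrane, at -0.35, -0.20 and -0.24. Riok2, a kinase of small ribosomal subunit assembly, was at -0.20, -0.75 and -0.31, and Pqbp1, a polyglutamine-binding protein of splicing, at -0.21, -0.38 and -0.20. The zinc finger genes Zfp287 and Zmym1 had weakest values of -0.24 and -0.23, and 1700054O19Rik one of -0.25. Cacna1i and Cyp11a1 were next in order, just outside the 12.

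**Figure D3:**
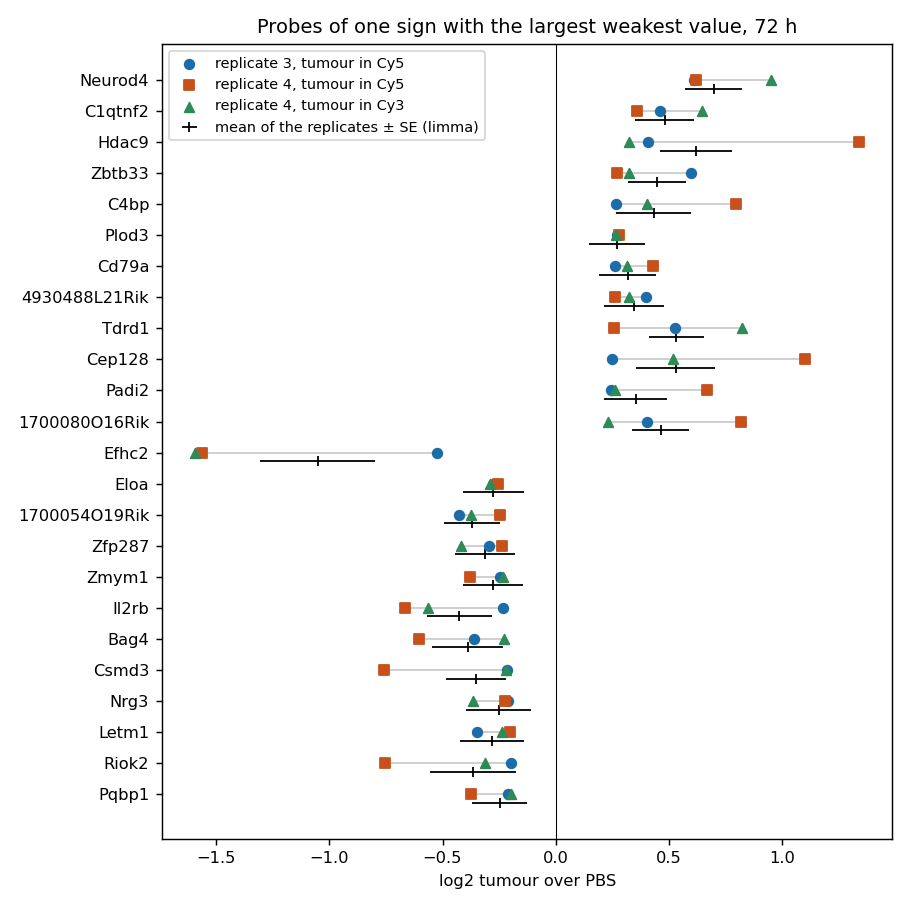
Log2 ratio of tumour over PBS on each of the 3 arrays for the 12 higher and 12 lower probes whose weakest array value was largest in size, with the limma mean and its standard error below each row. Neurod4 is highest by its weakest value (0.61) and Efhc2 lowest (-0.53); none of the 24 passed the adjusted threshold.

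In only 4 of the 24 named probes was the weaker channel, less background, at least as large as the local background on all 3 arrays. These were Plod3, Efhc2, Eloa and Riok2, and 48.6% of all probes reached this level. All 9 scanner files gave a usable value for 7 of the 24: C4bp, Plod3, 4930488L21Rik, Tdrd1, Efhc2, Eloa and Riok2. The files are repeat readings of the arrays that chose these probes, so their signs add no support. In the log ratios deposited by the authors, not every array kept the sign of each named probe. Among the higher genes it was lost by C1qtnf2, Hdac9, C4bp, 4930488L21Rik, Tdrd1, Padi2 and 1700080O16Rik. Among the lower genes it was lost by Riok2 and by Zmym1, at 0.073, 0.061 and -0.19. Of the 72 genes with 2 probes, 36 had probe means of the same sign, and the means correlated at 0.117 between probes. Zmynd8, a chromatin reader picked after its values were seen, was the 1 gene with both probes of the same sign on all arrays, at 0.08, 0.20 and 0.06 on the first probe and 0.01, 0.34 and 0.07 on the second.

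The 10 smallest p-values at 72 h included genes that the swap did not bear out. Gabra3, a subunit of the GABA A receptor, averaged -0.78 ± 0.13 (limma unadjusted p = 0.00113), from -0.83 in replicate 3 and -1.93 and 0.46 in replicate 4. Has3, which makes hyaluronan, averaged -0.70 ± 0.15 (limma unadjusted p = 0.00123), from -0.92 in replicate 3 and -2.02 and 1.05 in replicate 4. In both genes the ratio changed sign with the dye. Gpank1 (0.76, 1.06 and -0.02) and Dscam, a neuronal adhesion molecule (-0.68, -0.63 and 0.07), also stood apart from 0 with tumour in Cy5 alone. The remaining 6 were Neurod4, Tdrd1, Efhc2, 1700080O16Rik, Hdac9 and Zbtb33, of the same sign on the 3 arrays.

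The difference between 72 h and the other times asks where 72 h stood apart from them. Limma called 0 of 2006 probes (0%) with at least 2 replicates at each time, with 26 (1.3%) at an unadjusted p under 0.05 and no adjusted p under 0.9993. Atp6ap2, an accessory subunit of the vacuolar proton pump, had the smallest p, with 72 h 0.74 ± 0.17 above the mean of 18 and 192 h. Its replicate values at 72 h were 0.27 and 0.08, and the difference came with -1.08 and -0.93 at 18 h. Cnn3, an actin-binding calponin, differed by 0.82 ± 0.28 in the same way, from -1.65 and -0.66 at 18 h and -0.02 and 0.40 at 72 h. Ndn, the neuronal growth suppressor necdin, differed by 0.65 ± 0.17, with 0.49 and 0.23 at 72 h against values from -0.45 to -0.16 in the other 4 replicates. Ndn was picked by its small p for this difference, and its replicate 4 with tumour in Cy3 gave -0.05. Spsb3, a SOCS box protein, differed by -0.81 ± 0.24, with -1.11 in replicate 3, -0.20 and -0.15 in replicate 4 and 0.02 to 0.38 in all 5 other replicates. Il10ra, the interleukin 10 receptor chain, differed by -0.46 ± 0.15 and Gpank1 by 0.58 ± 0.18.

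Of the 946 probes of the same sign on the 3 arrays, 911 had a value at 18 h and 53.3% of these had the sign of their 72 h mean there, against 53% of all 4473 probes. At 192 h the share was 58.8% of 851, against 53.8% of all 4255.

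**Figure D4:**
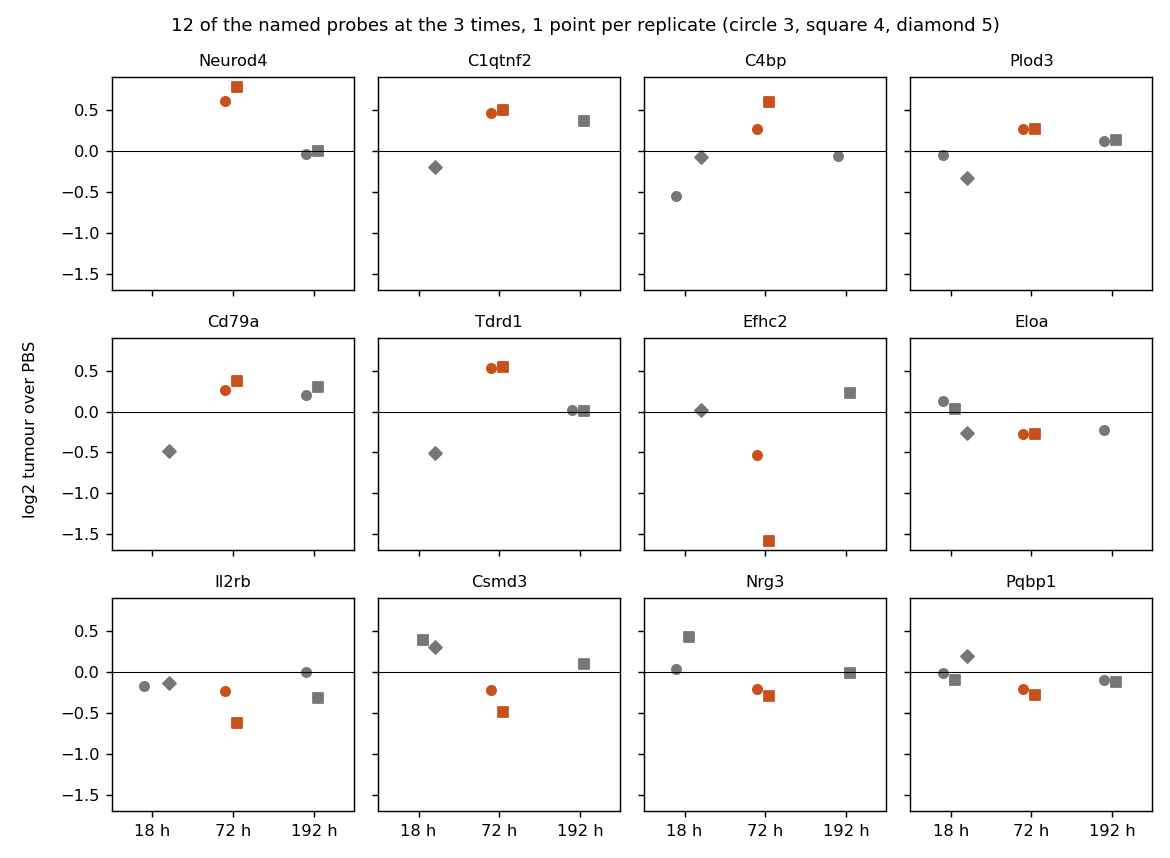
Log2 ratio of tumour over PBS in each total RNA replicate at 18, 72 and 192 h for 12 of the named probes, 1 point per replicate (circle for replicate 3, square for 4, diamond for 5; 72 h in orange). The 72 h points of Neurod4 are above its points of 192 h, with none at 18 h, and those of Efhc2 are below its points of the other times. In most other panels the 72 h points also lie on 1 side of the rest, and the probes were chosen by their 72 h values. Il2rb is below 0 at every point.

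Gene lists of cortical cell types and pathways held 0 members past the adjusted threshold in either direction, so each list is given by its members of the same sign (20.5% of all probes) and its median (-0.01 for all probes). The mean over the replicates was below 0 in 2479 of all 4617 probes (53.7%). Excitatory neuron markers had 10 of 13 probes with a mean below 0 and a median of -0.12. The medians by array were -0.25 in replicate 3 and 0.01 and -0.04 in replicate 4, so the array of replicate 3 held most of it. The median over both replicates was below 0 under each of 6 other scalings as well, from -0.17 to -0.026, while members of the same sign on the 3 arrays went from 2 lower to between 0 and 3 lower, with 0 or 1 higher. Ntng1, the adhesion protein netrin-G1, was at -0.17, -0.34 and -0.26 on 1 probe. The spot of a second Ntng1 probe had signal in the tumour channel alone on both arrays of replicate 4. On replicate 3 it had signal in the PBS channel alone, so it gave no ratio. Camk2b, a subunit of the calcium and calmodulin dependent kinase of synapses, was at -0.54, -0.0084 and -0.06. Inhibitory neuron markers had 8 of 11 means below 0 and 3 members of the same sign, all lower, with a median of -0.09. By array the medians were -0.13 in replicate 3 and 0.03 and -0.09 in replicate 4. Over these scalings the median ranged from -0.19 to -0.0027, with 1 to 3 members lower and 0 or 1 higher. Gad2, which makes GABA, was at -0.15, -0.10 and -0.16, Sox6, a factor of interneuron development, at -0.17, -0.06 and -0.21, and Erbb4, the neuregulin receptor, at -0.48, -0.02 and -0.09. Erbb4 was near 0 in replicate 4, and its ligand Nrg3 is among the lower genes above.

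Genes of synaptic vesicles and release had 10 of 15 means below 0 and a median of -0.07 (-0.11 to -0.038 over the other scalings), with 3 of the same sign, all lower (1 to 4 lower and 0 or 1 higher over those scalings). Syn1, a synapsin that tethers vesicles, was at -0.36, -0.09 and -0.07, Syp, the vesicle protein synaptophysin, at -0.65, -0.16 and -0.02, and Stx1a, a membrane syntaxin of release, at -0.05, -0.14 and -0.05. Syn1 and Syp were lowest in replicate 3 and Stx1a in replicate 4, and the list's medians were -0.03 in replicate 3 and -0.09 and -0.02 in replicate 4. Signalling genes of neuropeptides and monoamines had 3 of 20 of the same sign and a median of -0.03. Cckbr, a cholecystokinin receptor (-0.33, -0.09 and -0.17), and Htr2c, a serotonin receptor (-0.22, -0.01 and -0.13), were lower, while Drd2, a dopamine receptor that also marks striatum, was higher (0.16, 0.32 and 0.38). The other 4 striatum markers had mixed signs, and the median of the 5 was -0.05.

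Glial and vascular markers were few. Microglia and macrophage markers had 4 of 6 means above 0 and a median of 0.07, from -0.03 in replicate 3 to 0.10 and 0.19 in replicate 4. Of the 6, 2 had the same sign, both higher: P2ry12, a nucleotide receptor of microglia, at 0.23, 0.13 and 0.24, and C1qb, a chain of complement C1q, at 0.11, 0.20 and 0.0029. Under 4 of the 6 other scalings this count was smaller, with 1 higher without loess or without background subtraction, 0 higher and 1 lower for loess in sub-grids and 0 of either for the deposited scores. Astrocyte markers had 6 of 8 means below 0, a median of -0.10 and 1 member of the same sign, Atp1b2, a sodium pump subunit, at -0.04, -0.83 and -0.02. Oligodendrocyte markers had 6 of 7 means above 0 and a median of 0.06, and the 1 of the same sign was lower, Plekhb1 at -0.09, -0.14 and -0.51. The oligodendrocyte medians by array were -0.0058 in replicate 3 and -0.047 and 0.045 in replicate 4. None of the 4 endothelial and pericyte markers or the 4 choroid plexus and meninges markers kept its sign, and the medians were 0.09 and -0.04. The endothelial and pericyte medians by array were 0.0016 in replicate 3 and 0.0046 and 0.23 in replicate 4. The largest means of that list were those of Eng, an endothelial receptor of the TGF-beta family (-0.24 ± 0.16), and Pdgfrb, the pericyte receptor for platelet-derived growth factor (0.21 ± 0.13). In the choroid and meninges list they were those of Foxd1 (-0.15 ± 0.20) and the matrix protein Dcn (-0.06 ± 0.12).

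Blood leukocyte markers had 4 of 7 members of the same sign (57.1%), all higher, 5 of 7 means above 0 and a median of 0.08. Under the other scalings 2 to 4 of the 7 had the same sign. This share was the largest of the 23 lists here but not under 4 of the 6 other scalings, where it was 28.6% to 42.9% and another list had 30.8% to 44.4%. Besides Cd79a they were Gzmb, a granule protease of killer cells (0.09, 0.22 and 0.26), Cd5, a surface protein of T cells (0.36, 0.18 and 0.0011), and Zap70, a T cell receptor kinase (0.0019, 0.21 and 0.09). Cd5 and Zap70 thus each had 1 array at about 0, and the list's medians were 0.0019, 0.22 and 0.0011 on the 3 arrays. Of the list, 9 further members on the arrays had no value on all 3, the T cell receptor genes Cd3d, Cd3e and Cd3g and the B cell gene Ms4a1 among them. Markers of epithelial tumour cells had 4 of 8 means above and 4 below 0, with a median of 0.02, from 0.16 in replicate 3 to -0.02 and -0.01 in replicate 4. Of the 8, 2 had the same sign, both tight junction claudins and both higher, and this count went from 0 to 3 higher and from 0 to 2 lower under the other scalings. Cldn4 was at 0.63, 0.17 and 0.31 (mean 0.44 ± 0.14, limma unadjusted p = 0.0191) and Cldn3 at 0.20, 0.25 and 0.23. Both claudin spots were among the dimmest, and Epcam, Cdh1, Krt19 and Krt20 gave no value on all 3 arrays. Whether blood or other cells had a part in the ratios of other genes was not tested.

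Inflammatory genes showed no common direction. The cytokine list had 4 of 26 probes of the same sign and a median of 0.04 over the replicate means. By array its medians were below 0, at -0.014 in replicate 3 and -0.014 and -0.030 in replicate 4. The median over the replicate means was below 0 under 2 of 6 other scalings. The NF-kappa B subunit Relb (-0.10, -0.08 and -0.14), 1 probe of the interleukin 6 receptor Il6ra (-0.41, -0.08 and -0.11) and the chemokine Ccl27a (-0.22, -0.02 and -0.18) were lower, and Ifng, interferon gamma, was higher by little (0.0095, 0.12 and 0.22). The second probe of Il6ra was at 0.39, -0.03 and -0.31, so the probes of this gene disagree. None of 7 interferon response genes (median 0.03) kept its sign, with Irgm1, an immunity GTPase, at a mean of 0.21 ± 0.17 and Isg15, a ubiquitin-like protein, at -0.18 ± 0.16. Il6, Cxcl1, Ptges and Socs3 had no value on all 3 arrays. Glucocorticoid-responsive genes (median 0.0072) had 2 of 14 of the same sign, Hsd11b1, which regenerates active glucocorticoid, higher (0.02, 0.15 and 0.49) and the phosphatase Dusp1 lower (-0.28, -0.15 and -0.0086). Fkbp5, a standard glucocorticoid target, had no value on all 3 arrays.

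Immediate early genes, which neuronal activity induces, had a median of -0.0015, with Ier5 higher (0.02, 0.46 and 0.34) and Dusp1 and Jund (-0.15, -0.0040 and -0.07) lower among 9. The circadian list (median -0.01) had 1 of 7, Cry1, a clock repressor, at 0.32, 0.06 and 0.20. Of 22 chaperone and stress genes of cytosol and endoplasmic reticulum, 4 kept their sign, and the median was -0.02. The chaperones Dnajb9 (0.16, 0.19 and 0.28), Dnaja2 (0.40, 0.45 and 0.08) and Hsp90aa1 (0.10, 0.36 and 0.06) were higher, and Pdia4, a disulfide isomerase, was lower (-0.31, -0.22 and -0.10). None of 8 cholesterol synthesis genes (median 0.03) kept its sign; Sqle, squalene epoxidase, had the largest mean, -0.31 ± 0.16, and Ebp, a sterol isomerase, was at -0.07 ± 0.16.

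Medians of housekeeping lists differed between the arrays. The median of 29 ribosomal protein probes was -0.15 in replicate 3 and 0.28 and -0.05 in replicate 4, and that of 41 oxidative phosphorylation probes -0.10, 0.20 and -0.07. The median of 22 proteasome and ubiquitin probes was -0.13, 0.19 and -0.04. All 3 lists were thus above 0 on the array of replicate 4 with tumour in Cy5 alone, and so they were under each of 6 other scalings, except that the ribosomal median was also above 0 with tumour in Cy3 for the deposited scores (0.0067). Their medians over the replicate means lay between -0.027 and -0.0047. Few members kept 1 sign: the ribosomal proteins Rpl22 (weakest value 0.04), Rpl11 (0.02) and Rps6 (0.0092) above 0 and Rpl34 (-0.06) below, Uqcrb of complex III (0.10) above and Ndufa1 of complex I (-0.011) below, and Psmc1 (0.011) above and the proteasome activator Psme3 (-0.14) and the ubiquitin hydrolase Uchl1 (-0.04) below. The cell cycle list (median -0.0099) had 4 of 19, Cdc25c, a phosphatase of mitotic entry, higher (weakest value 0.07) and Kif23 (-0.12), Cenpa (-0.10) and Mcm5 (-0.02) lower.

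**Figure D5:**
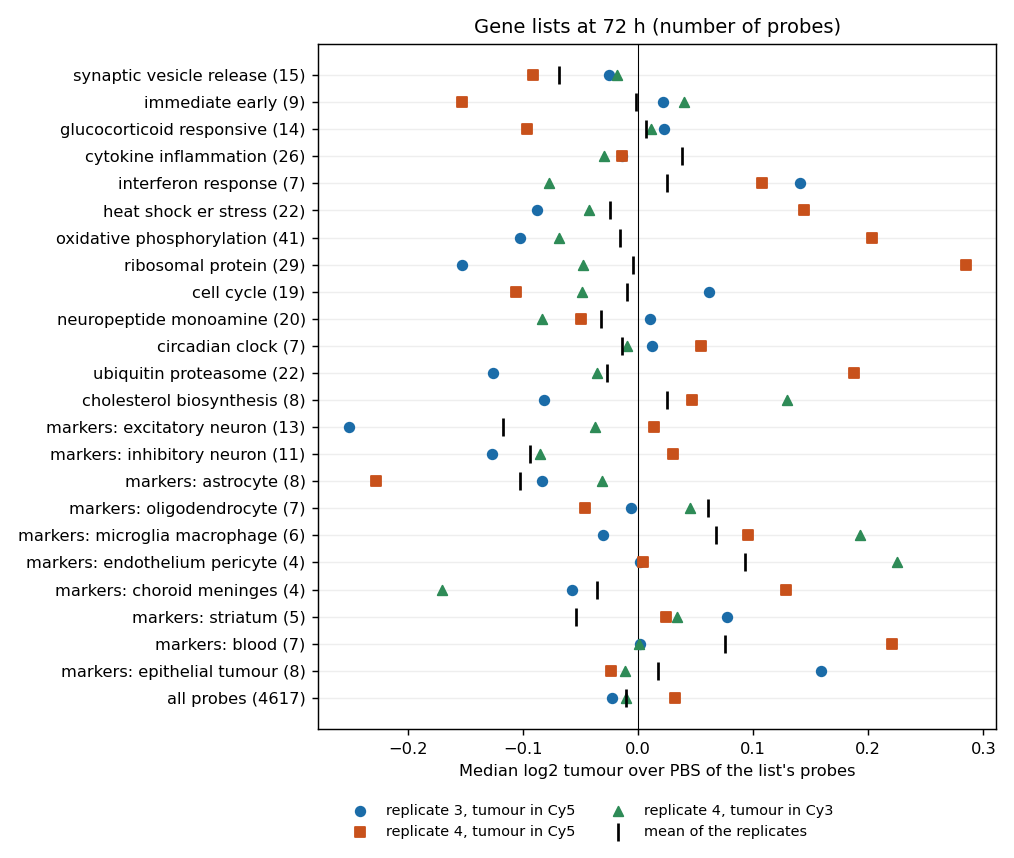
Median log2 ratio of tumour over PBS of each gene list on the 3 arrays and over the mean of the replicates (black bars), with the number of probes in brackets. The ribosomal, oxidative phosphorylation and ubiquitin lists lie right of 0 on the array of replicate 4 with tumour in Cy5 (0.28, 0.20 and 0.19) and left of 0 on the other arrays; excitatory neuron markers lie at -0.25 on replicate 3.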

How the data were processed

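The deposited scanner files, 3 per array, hold per the file headers the intensity of every spot in 2 channels, already less the local background, beside that background. The authors also deposited a processed score for every spot, a tumour over PBS log ratio whose scale, base and normalisation are not given in the sources used here, with medians from -0.00375 to 0.00240 on the 3 arrays. The first channel was read as Cy3 and the second as Cy5, the assignment under which the scores match the labelled dyes (correlations across spots of 0.445 to 0.675); were it the reverse, every direction would turn. Spots with no signal or marked B (31 to 49 pixels) were left out. Intensity ratios were taken on the log2 scale, normalised in each file by loess (limma loessFit, span 0.3, 4 iterations), turned to tumour over PBS, averaged over files, over spots of 1 accession (a probe) and over the orientations of a replicate. Least squares gave 1 mean per time point from the replicate means, with squeezed variances (limma 3.58.1, R 4.3.3; equal to lmFit and eBayes on complete probes) and Benjamini-Hochberg adjustment over all probes. The scripts were tested on simulated data. The number of arrays limits the precision.

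Symbols came from the deposited platform tables and were matched by gene identifier against GRCm38.p6. Of 8997 one-symbol probes 8909 matched, and 0 symbols were changed. On the layout of these arrays 9066 of 10080 spots had 1 symbol, 12 several and 1002 no entry. Named genes were the 12 higher and 12 lower probes of 1 sign with the largest weakest value, the 10 smallest p at 72 h, the 6 smallest p for the difference between times, and per list up to 4 members of 1 sign, or 2 by mean where none kept its sign. Zmynd8 and genes named as not measured, as just outside the 12 or as called without a replicate lie outside that rule. The arrays, the 23 gene lists (10 of cell type markers) and the rules were chosen with earlier results of these data known.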

Additional observations from a re-analysis of the deposited data

Results flagged for a closer look

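Spots with signal in only 1 channel have no ratio and entered no comparison. On both arrays of 72 h replicate 4, 207 spots had signal in the tumour channel alone in all 3 scanner files, and 0 had signal in the PBS channel alone on both. On the array with tumour in Cy5 there were 421 spots of tumour signal alone and 599 of PBS signal alone, and on the array with tumour in Cy3 there were 2694 and 7. The 207 are 49.2% of the 421 and 7.68% of the 2694, and tumour signal alone was found at 26.7% of all spots of the second array. On replicate 3, with tumour in Cy5, there were 1 spot of tumour signal alone and 964 of PBS signal alone, and no spot had signal of 1 condition alone on all 3 arrays. Many of the 207 spots had signal on replicate 3 in the PBS channel alone, the opposite condition. Most others had signal there in both channels or signal that differed between scanner files. By dye, signal in Cy3 alone was the more frequent kind on each of the 3 arrays (964, 599 and 2694 spots, against 1, 421 and 7 in Cy5 alone). The part of the dye in these counts was not tested.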

How the results depend on the processing

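The count of 0 probes past the threshold at 72 h, and that for 72 h minus the other times, held in all alternatives run except those that rest 72 h on 1 replicate. With the dye orientation as a covariate, 7 probes passed at 72 h and 1 for the difference. Leaving out 1 replicate at a time gave 5 to 6 probes at 72 h and 0 to 2 for the difference, with the lone 72 h replicate assumed to vary like the others. Without replicate 3 they were 2810032G03Rik, Spata48, Zfand1, Clec2g, Nr4a2 and Tacr1. All but Tacr1 were at 4.78 to 8.16 on replicate 4 with tumour in Cy3 but at -0.17 to -0.32 with tumour in Cy5. Tacr1 was below 0 in both, at -4.18 and -0.39, and at 0.19 in replicate 3. Without replicate 4 they were Mctp1, Rnf123, Upk1a, Rbbp5 and Cst6, at -2.07 to -3.38 on replicate 3. With a replicate block over numbers 3 and 4 the difference kept 0 probes, with 59 of 2006 at a limma unadjusted p under 0.05. The deviations of same-numbered replicates correlated at -0.151 to -0.027 between times. They rest on 1 noisy difference of replicates per time and cannot decide whether the numbers pair the samples. Scaling the arrays to 1 spread raised the unadjusted count at 72 h from 93 to 244 of 4617. The 946 probes of the same sign were 788 to 1073 in the other alternatives, apart from the following. Spots whose signal less background was at least as large as the background gave 631 of 2764. The second array of replicate 3 included gave 271 of 2967 over 4 arrays. The same sign in each of 9 scanner files, chosen after seeing the data, held for 155. Without loess the split was 634 higher and 305 lower, against 440 and 506. The median of 10 of the 23 lists kept its sign under 6 other scalings.

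The 1567 values of named genes under alternatives include 126 for 72 h minus the other times. Of the 1567, 29 had the opposite sign and 0 passed the threshold. Many could not turn. The 72 h mean is unchanged by using 72 h replicates alone, adding poly(A) replicates of 192 h or changing the variance model. For probes of the same sign on the 3 arrays, leaving out 1 replicate or adding the dye covariate keeps the sign too. The 29 of 1567 thus cannot measure how stable the signs are. With the second array of replicate 3, Zmym1 stood at 0.34 and Rpl34 at 0.17. Pqbp1 was then at 0.062, Camk2b at 0.0033, Ifng at -0.0079, Rps6 at -0.046 and Cdc25c at -0.071. Gabra3 stood at 0.081 with the dye bias subtracted from replicate 3. Without loess Mcm5 and Dcn were at 0.090 and Irgm1 at -0.022. With loess in sub-grids C1qb was at -0.0060, Rpl11 at -0.032 and Uqcrb at -0.0032. Without background subtraction Psmc1 was at -0.00068 and Dcn at 0.051. With the first scanner file alone Zap70 was at -0.11, Cldn3 at -0.034 and Dcn at 0.0080, and with the third Rpl11 at -0.053. With the deposited scores Rpl34 was at 0.017, Ifng at -0.024, Zap70 at -0.0011, Sox6 at 0.0057, Gzmb at -1.28e-05, Zmym1 at 0.0041 and Dcn at 0.0051. Eng was at 0.073 with the dye covariate, and from -0.55 to 0.073 with 1 replicate of 72 h left out. The cause was not tested. Low signal limits the named probes. In 4 of 24 the weaker channel, less background, was at least as large as the local background on all 3 arrays.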
